A study of Mus musculus with 18 samples.

Results

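The genes described here encode 10 proteins of the synaptic vesicle and the presynaptic active zone, the release machinery coupled to the Cav2.1 calcium channel: Pclo, Bsn, Rims1, Unc13c, Cplx1, Snap25, Stx1a, Nsf, Syt1 and Syt2. Every probe set that the platform annotation pairs with exactly 1 of these symbols was taken, which gave 29 probe sets, between 2 and 4 for each gene, of 34945 probe sets with exactly 1 symbol and 18193 genes in all. Total RNA of mouse cerebellum (strain C57BL/6) was hybridised to 18 Affymetrix arrays in 6 groups of 3. The groups were homozygous MPI 118Q/118Q knock-in mice and their wild-type littermates, homozygous Sca6 CtmKO/CtmKO mice (called Ctm knockout below) and their wild-type littermates, and homozygous MPI 11Q/11Q knock-in mice and their wild-type littermates. The labels put the 118Q knock-in and Ctm knockout mice at 6 weeks. No age is given separately for the 11Q mice or for the wild-type littermates of any line, and the labels name no further allele or treatment. The study addressed spinocerebellar ataxia type 6 and the last coding exon of Cav2.1, whose gene is Cacna1a. What each allele changes in that exon is not spelled out in the labels, and how far the 3 arrays of a group stand for separate animals is not stated either, so the p-values measure the spread between these samples only.

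In a nerve terminal, an action potential opens calcium channels beside docked vesicles, and in the cerebellum Cav2.1 carries much of this calcium entry. Piccolo (Pclo), bassoon (Bsn) and RIM1 (Rims1) are scaffolds that hold channels and vesicles at the release site, Munc13 proteins prime the vesicles, and the SNARE proteins syntaxin 1A (Stx1a) and SNAP-25 (Snap25) pull the membranes together. Synaptotagmins 1 and 2 sense the calcium, complexin 1 (Cplx1) holds and then releases the SNARE complex, and the ATPase NSF takes used complexes apart.

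Of the 10 genes, only Pclo and Syt1 had probe sets that passed the test in a line against its own littermates, and their promoters are shown for that reason. They are RefSeq sequences of GRCm38.p6, from 250 bases before to 50 bases after each annotated start, 5′ to 3′ on the strand of the gene. Capitals mark the GC box GGGCGG, the core of the binding site of Sp-type factors, or its reverse complement CCGCCC. Pclo lies on the plus strand at chr5:14514668-14514967, and Syt1 has 2 listed starts on the minus strand, at chr10:109010926-109011225 and chr10:109009062-109009361.
Pclo: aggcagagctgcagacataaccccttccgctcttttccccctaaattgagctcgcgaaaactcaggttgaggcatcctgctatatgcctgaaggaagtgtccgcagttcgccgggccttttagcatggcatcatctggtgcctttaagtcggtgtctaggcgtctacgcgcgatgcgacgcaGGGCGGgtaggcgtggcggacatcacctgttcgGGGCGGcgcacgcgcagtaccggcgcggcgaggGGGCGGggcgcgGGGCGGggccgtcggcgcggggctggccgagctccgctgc
Syt1 upstream start: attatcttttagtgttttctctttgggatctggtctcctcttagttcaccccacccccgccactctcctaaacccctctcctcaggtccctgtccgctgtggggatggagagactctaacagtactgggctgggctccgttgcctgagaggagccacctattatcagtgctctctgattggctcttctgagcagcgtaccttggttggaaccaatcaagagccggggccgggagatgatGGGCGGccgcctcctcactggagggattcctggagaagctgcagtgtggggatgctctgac
Syt1 downstream start: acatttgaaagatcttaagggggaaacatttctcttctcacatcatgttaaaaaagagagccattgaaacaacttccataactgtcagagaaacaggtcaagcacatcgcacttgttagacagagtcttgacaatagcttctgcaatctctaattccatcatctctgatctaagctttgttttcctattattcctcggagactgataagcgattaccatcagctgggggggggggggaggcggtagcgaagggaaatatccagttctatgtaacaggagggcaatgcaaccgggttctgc
The Pclo promoter held 4 GC boxes, 66% G and C and 35 CpG pairs. The upstream Syt1 start held 1 GC box, 56.7% G and C and 8 CpG pairs, and the downstream one held 0 GC boxes, 44% G and C and 6 CpG pairs. Over the 10 genes, 11 promoters of 9 genes were found, and 8 of these 11 held a GC box on either strand, against 35.7% of the 32851 promoters in the table. Where the probe sets lie in the transcripts is not given in the sources used here, so no probe set can be assigned to a start.

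The values are log2 expression values made by RMA, a summary over the probes of a probe set. A level is compared below only within 1 probe set. Array medians ran from 2.38 to 2.55 and correlations between pairs of arrays from 0.973 to 0.995. A probe set was called changed where limma gave an adjusted p below 0.05 over all 34945 probe sets. Changes are mutant minus wild-type littermates, with the standard error (SE) of that model, and n = 3 per group throughout. The Ctm wild types stood apart from the 6 knock-in wild types: 5800 probe sets, 16.6%, were called different between them. Wild-type arrays 3 of the 118Q and the 11Q line deviated from their groups together, with a correlation of these deviations of 0.42 over all probe sets. RNA quality was read from the control probes for Gapdh and actin, as their signal at the 3' end minus that at the 5' end. A smaller difference stands for more intact RNA. The difference lay between 0.41 and 0.47 in the 118Q knock-in, below the range of 0.50 to 0.61 in its wild types. By an exact permutation test, two-sided, p was 0.1, the smallest that 3 arrays against 3 allow, and 0.42 after adjustment over 63 such tests of array measures. Choroid plexus transcripts varied widely. Their summed level ran from 94.9 to 3864 in 11Q knock-in arrays, against 4144 to 4332 in 11Q wild types (exact permutation p = 0.1, adjusted p = 0.42). In the 118Q line it ran from 462 to 3855 in knock-in and from 138 to 4408 in wild type. In the Ctm line it ran from 133 to 4766 in knockout and from 525 to 4752 in wild type.

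In the 118Q knock-in, 0 of the 29 probe sets passed the test, and 0.558% of all probe sets did (195 of 34945, with 93 higher and 102 lower). At an unadjusted p below 0.05 there were 9 of 29, against 4910 of all probe sets (14.1%). All 9 had negative values, and they belonged to Pclo, Nsf, Snap25, Syt1 and Syt2. The 3 knock-in arrays lay below all 3 wild-type arrays in 7 of the 29 probe sets and above all of them in 0. These 7 belonged to Pclo, Nsf and Syt1 only, and probe sets of 1 gene do not count as separate genes. Over all probe sets, 16.3% did not overlap, 5.88% below and 10.4% above. The median change of the 29 was -0.04, and of all probe sets 0.03.

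In the Ctm knockout, 2 of the 29 probe sets rose, 1 of Syt1 and 1 of Pclo, and 0 fell, with 0.916% of all probe sets called (320 of 34945). Of these 320, 300 were higher (0.858%) and 20 lower (0.0572%). In the fit on the 6 Ctm arrays alone, neither of the 2 passed. At an unadjusted p below 0.05 there were 4 of 29, against 3855 of all probe sets (11%). The groups did not overlap in 6 of the 29, 4 higher and 2 lower in the knockout, against 19.4% of all probe sets (7.01% higher and 12.4% lower). The median of the 29 was -0.04, the same as the -0.04 of all probe sets.

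In the 11Q knock-in, 0 of 29 passed by limma, as did 0% of all probe sets. At an unadjusted p below 0.05 there were 2 of 29, against 1830 of all probe sets (5.24%). The smallest adjusted p among the 29 was 0.909. Without overlap lay 4 of 29, 2 higher and 2 lower, against 9.88% of all probe sets (4.28% higher and 5.61% lower).

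**Figure D1:**
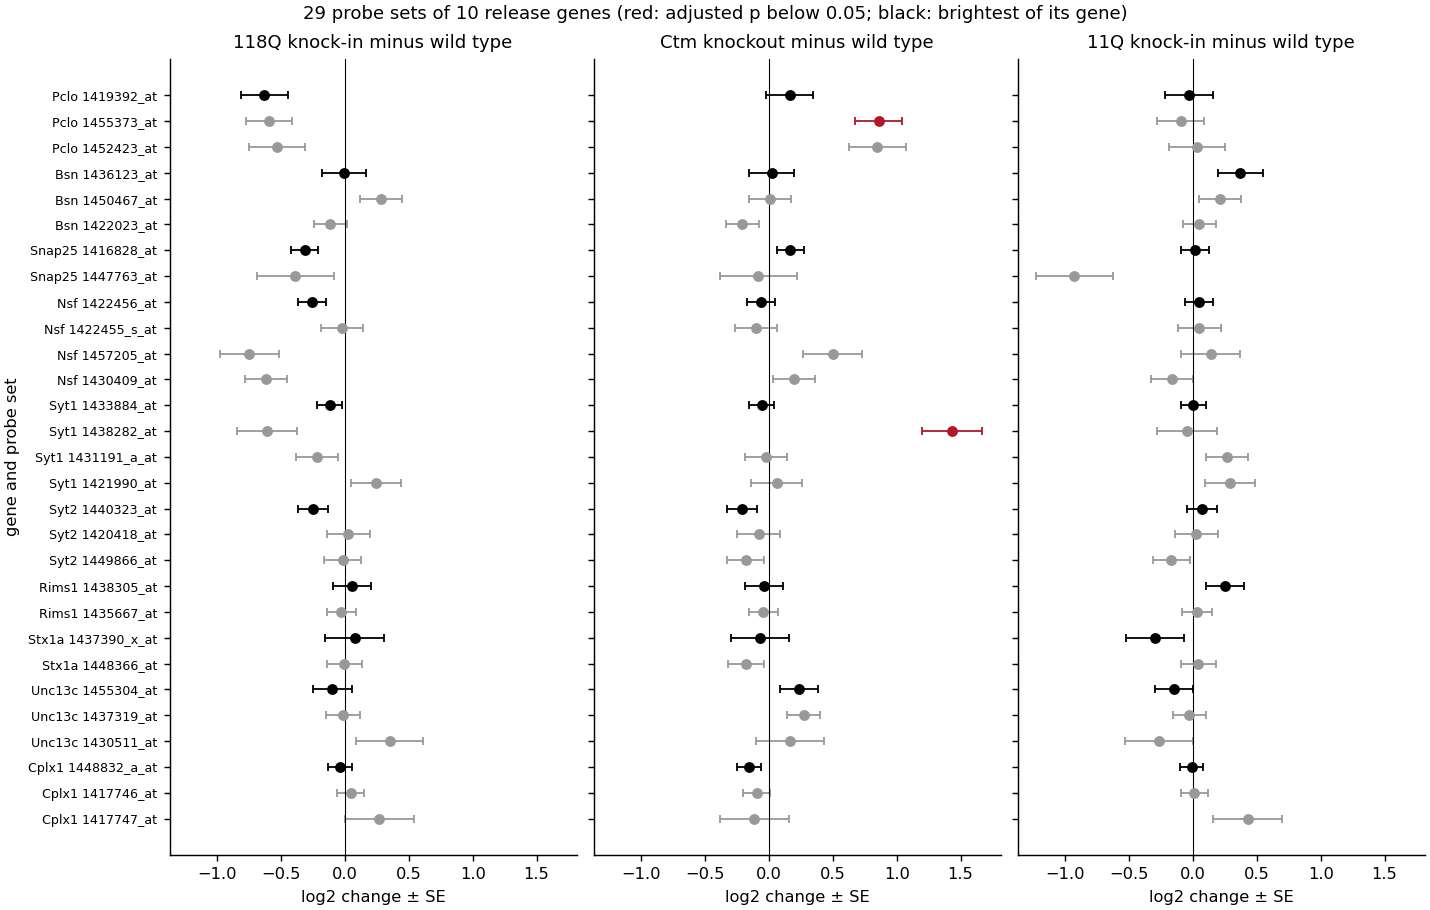
Log2 change with its SE (x axis) of each of the 29 probe sets (y axis), mutant minus wild-type littermates, in the 118Q, Ctm and 11Q lines. Red marks an adjusted p below 0.05 and black the brightest probe set of a gene. The only red points are Syt1 1438282_at at 1.43 and Pclo 1455373_at at 0.86 in the Ctm line, and the Pclo points lie between -0.63 and -0.53 in the 118Q line.

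Among the active zone scaffolds, Pclo was lower on each of its 3 probe sets in every 118Q knock-in array than in any wild type. On 1419392_at, its brightest probe set, the 118Q knock-in arrays read 6.59, 6.25 and 6.64, and their wild types 7.15, 6.65 and 7.57. The 2 groups came close to touching, since the second wild type lay just above the highest knock-in. The change was -0.63 (SE 0.19, adjusted p = 0.122), short of the threshold, or a 1.55-fold lower level.

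On 1455373_at the 118Q knock-in read 6.19, 6.38 and 6.38, against 7.07, 6.73 and 6.93 in wild type. The change was -0.59 (SE 0.18, adjusted p = 0.131). On 1452423_at the 118Q knock-in read 5.21, 5.25 and 5.15, against 6.05, 5.72 and 5.44 in wild type, a change of -0.53 (SE 0.22, adjusted p = 0.277). The 3 probe sets thus gave values of similar size, and none of them passed.

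Markers of Purkinje cells, the output neurons of the cerebellar cortex, were low in the same arrays. Of 12 measured markers 4 fell in the 118Q knock-in and 0 rose, against 0.363% and 0.335% of all genes: Slc1a6 at -1.11, Dner at -1.10, Stk17b at -0.96 and Car8 at -0.65. All 4 calls were lost in the fit on the 6 arrays of the line alone (adjusted p from 0.229 to 0.286 by limma) and with the RNA quality measure as a covariate (0.0668 to 0.124), at values of -0.62 to -1.11. The summed level of the 12 was 9622, 8085 and 8462 in the 118Q knock-in, against 10518, 10885 and 11078 in wild type. The groups did not overlap (exact permutation p = 0.1, adjusted p = 0.42). Fewer cells of a type and less RNA per cell cannot be told apart in such bulk tissue, and the part of Purkinje cells in the Pclo values was not tested. With the RNA quality measure as a covariate, Pclo 1419392_at was at -0.53 (adjusted p = 0.302). Without wild-type array 3, its highest, it was at -0.41 (adjusted p = 0.424), and without wild-type array 2, its lowest, it passed at -0.87 (adjusted p = 0.0347).

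Set against all 6 knock-in wild types, 4 of the 29 probe sets were called in the 118Q knock-in, all lower, with 6.28% of all probe sets called (3.67% higher and 2.6% lower). Both brighter Pclo probe sets were among them, 1419392_at at -0.64 (SE 0.16, adjusted p = 0.0269) and 1455373_at at -0.63 (SE 0.16, adjusted p = 0.0246). This comparison borrows wild types of the 11Q line, so line and genotype cannot be told apart in it.

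The Pclo probe sets of the Ctm line gave unlike values. On 1455373_at the Ctm knockout read 6.81, 7.10 and 6.52, against 6.40, 5.77 and 5.68 in wild type, with no overlap. It rose by 0.86 (SE 0.18, adjusted p = 0.0324), a 1.81-fold higher level. On 1452423_at the Ctm knockout read 6.36, 6.76 and 5.96, against 6.05, 5.40 and 5.08 in wild type. There the first wild type lay above the third knockout, and the change of 0.85 (SE 0.22, adjusted p = 0.0798) stayed just short. On 1419392_at the Ctm knockout read 6.97, 6.81 and 6.41, against 6.77, 6.50 and 6.45 in wild type. These overlapped, and the change was 0.16 (SE 0.19, adjusted p = 0.829). A test of each probe set against the others of its gene, added after the data were seen, did not call Pclo 1419392_at (-0.69 from the other two, adjusted p = 0.648).

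The call of Pclo 1455373_at in the Ctm line depended on single arrays of both groups, while its value stayed between 0.71 and 1.08 as each Ctm array was left out. It missed the threshold without Ctm wild-type array 2 (0.77, adjusted p = 0.103) or 3 (0.72, adjusted p = 0.241), and without Ctm knockout array 1 (0.86, adjusted p = 0.141) or 2 (0.71, adjusted p = 0.168). Without Ctm wild-type arrays 2 and 3 together, the 2 lowest on this probe set, it was 0.41. That refit leaves Ctm wild-type array 1 alone, the highest of the 3 here, so a smaller value was bound to follow.

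On 1455373_at the 118Q knock-in averaged 6.32 ± 0.11 and its wild types 6.91 ± 0.17 (SD, n = 3 each). The Ctm knockout averaged 6.81 ± 0.29 and its wild types 5.95 ± 0.39. The 11Q knock-in averaged 6.89 ± 0.20 and its wild types 6.99 ± 0.20. The Ctm wild types were thus the lowest group, the 118Q knock-in came next, and the other 4 groups differed from their neighbours in this order by less than their SDs. Relative to the 6 knock-in wild types, the Ctm wild types were at -1.0 (SE 0.16, adjusted p = 0.000417), and the Ctm knockout at -0.14 (adjusted p = 0.613). The first comparison is between wild types of different lines, and in the second line and genotype cannot be told apart. Pclo 1455373_at was at -0.10 in the 11Q line, with 6.68, 6.92 and 7.07 in knock-in against 6.92, 6.83 and 7.22 in wild type.

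**Figure D2:**
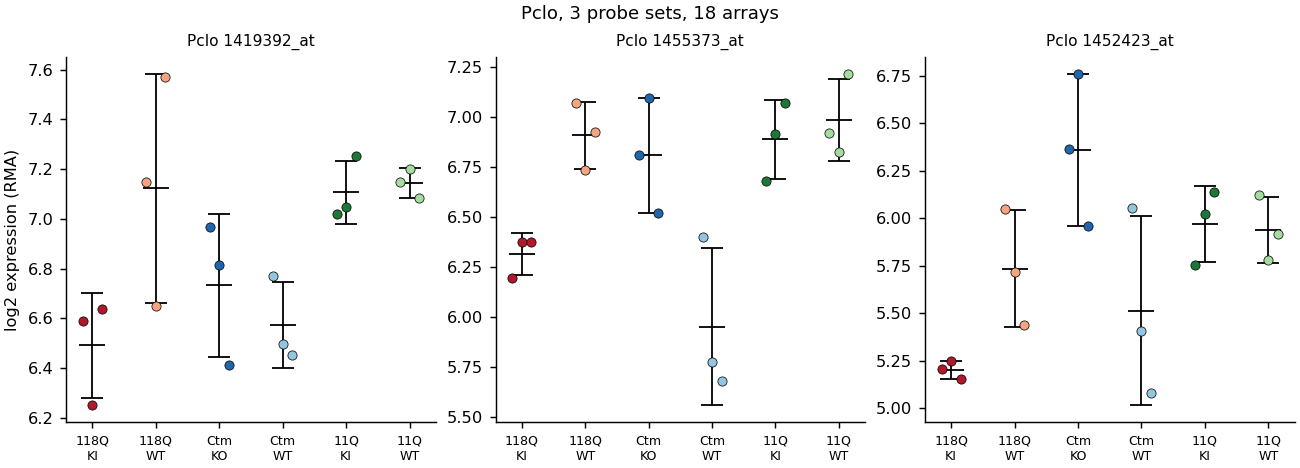
Log2 expression (y axis) of Pclo on its 3 probe sets in each of the 18 arrays by group (x axis), with the mean and SD of 3 arrays as bars. The 118Q knock-in lies below its wild types on all 3 panels, and the Ctm wild types are the lowest group on 1455373_at, with a mean of 5.95.

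The change of Pclo differed between the 118Q and Ctm lines on 2 of its 3 probe sets. The 118Q change minus the Ctm change was -1.45 on 1455373_at (SE 0.26, adjusted p = 0.0202) and -1.38 on 1452423_at (SE 0.31, adjusted p = 0.0389), in limma's test of the difference. On the brightest probe set it was -0.79 (adjusted p = 0.129). Of the 29 probe sets 3 passed this test, all lower, against 1.63% of all probe sets (0.758% higher and 0.873% lower). The third was of Syt1, described below. On 1455373_at the call was lost without 118Q knock-in array 3 (adjusted p = 0.0508), Ctm wild-type array 3 (0.0693), Ctm knockout array 1 (0.0632) or Ctm knockout array 2 (0.0574), and on 1452423_at in 9 of 12 such refits. With the RNA quality measure as a covariate the differences were -1.53 and -1.37 (adjusted p = 0.0582 and 0.0885). Neither passed with the arrays of both lines alone. Against the 11Q line, 0 of 29 passed for the 118Q change minus the 11Q change and 0 for the Ctm change minus the 11Q change, as did 0% of all probe sets in limma. At an unadjusted p below 0.05 there were 4 and 3 of 29, and 3138 and 2765 of all probe sets. The smallest adjusted p was 0.441 and 0.180.

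Bassoon, the partner scaffold of piccolo, was not called in any line. On Bsn 1436123_at the 118Q knock-in read 6.51, 6.54 and 6.68, against 6.80, 6.41 and 6.53 in wild type. The change was -0.007 (SE 0.17, adjusted p = 0.992). The Ctm knockout read 6.89, 6.93 and 6.53, against 6.76, 6.80 and 6.73 in wild type, a change of 0.02 (adjusted p = 0.986).

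For bassoon in the 11Q line the values were 7.23, 7.05 and 7.13 in knock-in, against 7.09, 6.98 and 6.24 in wild type. The change of 0.37 (SE 0.17, adjusted p = 0.909) rested on wild-type array 3, the low one, without which it was 0.105. Of the dimmer Bsn probe sets, 1450467_at was at 0.28 in 118Q (adjusted p = 0.480) and 1422023_at at -0.21 in Ctm (adjusted p = 0.606).

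RIM1, which binds Rab3 on vesicles and tethers calcium channels, was not called in any line against littermates. On Rims1 1438305_at the 118Q knock-in read 7.55, 7.46 and 7.57, against 7.65, 7.64 and 7.14 in wild type. The change was 0.05 (SE 0.15, adjusted p = 0.921), and the third wild type was the low one, 0.50 below the mean of the other two. The Ctm knockout read 7.86, 8.13 and 7.77, against 8.06, 8.01 and 7.81 in wild type, a change of -0.04 (adjusted p = 0.965).

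All 3 11Q knock-in arrays, at 7.92, 7.83 and 7.79, lay above the wild types at 7.78, 7.72 and 7.28, again with a low wild-type array 3. The Rims1 change was 0.25 there (SE 0.15, adjusted p = 0.909), and 0.09 without that array. The other probe set, 1435667_at, gave -0.03, -0.04 and 0.03 in the 118Q, Ctm and 11Q lines. The Ctm wild types stood 0.42 above the 6 knock-in wild types on 1438305_at (SE 0.13, adjusted p = 0.0328).

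Unc13c encodes Munc13-3, a priming factor that in mouse brain is found mainly in the cerebellum. On 1455304_at the 118Q knock-in read 7.68, 7.68 and 8.01, against 7.56, 7.80 and 8.32 in wild type. The groups overlapped, and the change was -0.10 (SE 0.15, adjusted p = 0.835). Its sign turned to 0.11 without wild-type array 3. Arrays of the Ctm knockout read 7.67, 7.43 and 7.5, against 7.23, 7.39 and 7.27 in wild type. These did not overlap, and the change of 0.23 (SE 0.15, adjusted p = 0.630) did not pass. The 11Q knock-in read 7.71, 7.85 and 7.80, against 7.89, 7.85 and 8.07 in wild type, a change of -0.15 (adjusted p = 0.920).

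The second bright probe set of Unc13c, 1437319_at, was at -0.02, 0.27 and -0.03 in the 118Q, Ctm and 11Q lines. The dimmer 1430511_at was at 0.35, 0.17 and -0.26, all with adjusted p of 0.612 or more. On 1455304_at the Ctm wild types were 0.62 below the 6 knock-in wild types (SE 0.13, adjusted p = 0.00377), at a mean of 7.30 ± 0.08 (SD, n = 3) against 7.92 ± 0.26 (SD, n = 6).

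Complexin 1 gave small values on its brighter probe sets. On Cplx1 1448832_a_at the 118Q knock-in read 9.5, 9.33 and 9.37, against 9.41, 9.52 and 9.40 in wild type, a change of -0.04 (SE 0.09, adjusted p = 0.901). Ctm knockout arrays read 9.07, 9.17 and 9.16, below all 3 wild types at 9.25, 9.30 and 9.33. The change was -0.16 (SE 0.09, adjusted p = 0.579). In the 11Q line the knock-in at 9.34, 9.44 and 9.41 overlapped the wild types at 9.33, 9.37 and 9.53 (change -0.01).

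On Cplx1 1417746_at the 3 changes were 0.05, -0.10 and 0.009. On the dimmest, 1417747_at, they were 0.27, -0.12 and 0.43, and the wild-type arrays 3 of both knock-in lines stood out, at 5.32 in 118Q and 5.38 in 11Q, where the other 16 arrays lay between 6.11 and 6.65. Without that array the value on 1417747_at was -0.15 in 118Q and 0.11 in 11Q.

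SNAP-25, the SNARE of the plasma membrane anchored there by lipids, gave a small negative value in 118Q. On Snap25 1416828_at the 118Q knock-in read 10.93, 10.60 and 10.81, against 10.92, 11.23 and 11.14 in wild type. The first arrays of both groups nearly coincided, and the change was -0.32 (SE 0.11, adjusted p = 0.175). In the Ctm knockout they were 11.42, 11.31 and 11.24, against 11.11, 11.13 and 11.23 in wild type, so that the groups just failed to overlap. The change was 0.17 (SE 0.11, adjusted p = 0.633). For the 11Q line, 11.08, 11.05 and 11.11 in knock-in stood against 11.15, 10.98 and 11.07 in wild type (change 0.01). With array weights the 118Q value passed, at -0.36 (adjusted p = 0.0417).

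The dimmer Snap25 1447763_at was at -0.93 in the 11Q knock-in (SE 0.30, adjusted p = 0.909), the largest value of the 29 in that line. The knock-in read 3.39, 3.23 and 3.05, against 3.71, 3.75 and 4.99 in wild type. Wild-type arrays 3 of both knock-in lines were high here, 1.25 above the other two in 11Q and 1.22 in 118Q. Without that array the 11Q value was -0.51. No promoter of Snap25 was analysed here.

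Syntaxin 1A was not called in any line. On Stx1a 1437390_x_at the 118Q knock-in read 3.18, 3.95 and 3.64, against 3.66, 3.63 and 3.25 in wild type (change 0.08, SE 0.23, adjusted p = 0.929). The Ctm knockout read 3.08, 3.30 and 3.31, against 3.41, 3.18 and 3.31 in wild type (change -0.07). Its 11Q values were 2.62, 3.21 and 3.36 in knock-in, against 3.22, 2.97 and 3.90 in wild type (change -0.30, adjusted p = 0.911). On 1448366_at the changes were -0.005, -0.18 and 0.04. Both probe sets are dim, and the suffix of 1437390_x_at marks a probe set that may also bind other transcripts, so values of Stx1a are uncertain.

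The 4 probe sets of Nsf gave unlike values. On Nsf 1422456_at, the brightest, the 118Q knock-in read 8.85, 8.40 and 8.45, against 8.80, 8.89 and 8.79 in wild type. The first knock-in array lay among the wild types and the other two well below them, and the change was -0.26 (SE 0.11, adjusted p = 0.281). Without that first array it passed, at -0.40 (adjusted p = 0.0288), as it did with array weights, at -0.35 (adjusted p = 0.0339). The same array had the highest Purkinje marker sum of the knock-in, at 9622, but it was the lowest knock-in array on Nsf 1457205_at and 1430409_at. The part of Purkinje cells in the Nsf values was not tested.

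On the dimmer Nsf 1457205_at all 118Q knock-in arrays, at 3.33, 3.52 and 3.45, lay below the wild types at 4.25, 3.95 and 4.35. The change was -0.75 (SE 0.23, adjusted p = 0.135). On 1430409_at the knock-in, at 0.57, 0.64 and 0.79, lay below 1.13, 1.24 and 1.49 in wild type, a change of -0.62 (SE 0.17, adjusted p = 0.0914). This was the smallest adjusted p of the 29 in the 118Q line, on a probe set near the low end of the scale, and with array weights it passed at -0.52 (adjusted p = 0.0371). Against the 6 knock-in wild types both passed, 1457205_at at -0.90 (SE 0.20, adjusted p = 0.0150) and 1430409_at at -0.65 (SE 0.14, adjusted p = 0.0147). On 1422455_s_at the 118Q change was -0.03 (adjusted p = 0.971).

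In the Ctm line Nsf 1422456_at read 9.01, 9.10 and 9.0 in knockout and 9.04, 9.07 and 9.18 in wild type, a change of -0.06 (adjusted p = 0.897). On 1457205_at it was 4.16, 4.40 and 3.84 in knockout against 3.05, 4.34 and 3.51 in wild type. The change there was 0.50 (SE 0.23, adjusted p = 0.439), with wide overlap. The 11Q values of the 4 probe sets ran from -0.16 to 0.14.

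On Nsf 1422455_s_at both Ctm groups stood above all 12 arrays of the other lines. The Ctm knockout read 7.76, 7.82 and 7.78 and the Ctm wild types 7.96, 7.79 and 7.92, while the knock-in lines ranged from 6.49 to 7.23. Within the Ctm line the change was -0.10 (adjusted p = 0.891). The difference from the 6 knock-in wild types was 0.94 in Ctm knockout (SE 0.14, adjusted p = 0.00113) and 1.04 in Ctm wild type (SE 0.14, adjusted p = 0.000172). Both Ctm genotypes were thus high. The suffix of this probe set marks probes shared by several transcripts.

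**Figure D3:**
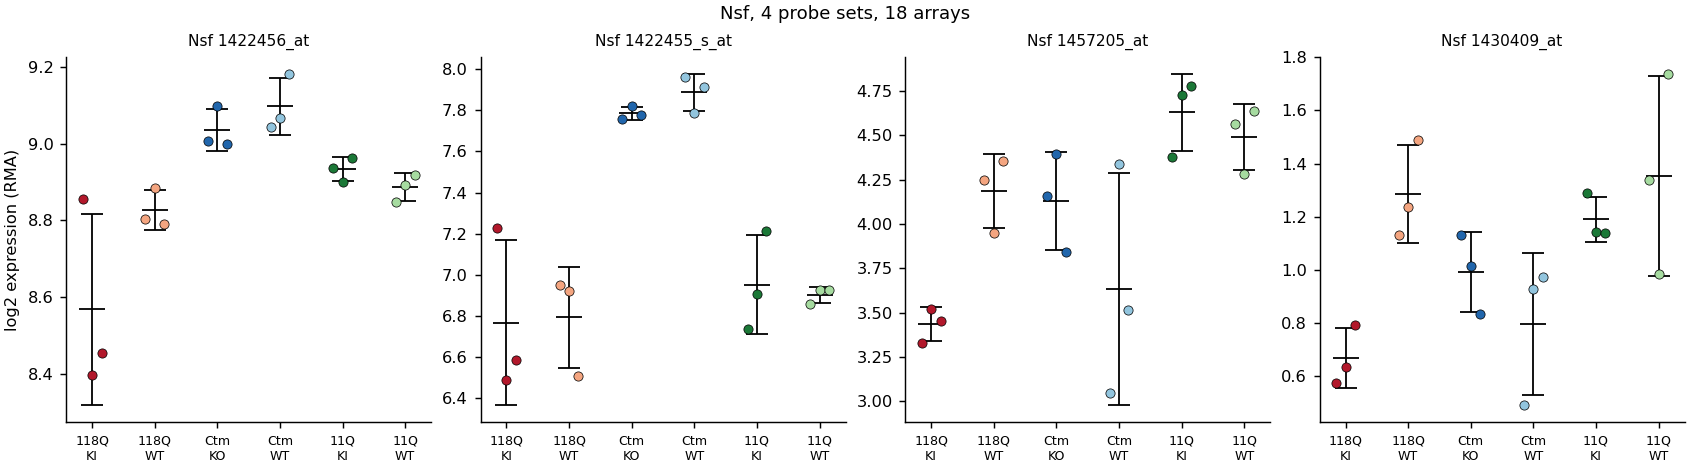
Log2 expression (y axis) of Nsf on its 4 probe sets in each of the 18 arrays by group (x axis), with the mean and SD of 3 arrays as bars. The 118Q knock-in lies below its wild types on 1457205_at and 1430409_at, and both Ctm groups lie above all other groups on 1422455_s_at.

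Synaptotagmin 1, a fast calcium sensor of the vesicle membrane, held the largest change of the 29 probe sets. On Syt1 1438282_at the Ctm knockout read 5.65, 5.39 and 5.08, against 4.28, 4.41 and 3.15 in wild type. There was no overlap, and the third wild type was the lowest of all 18 arrays. The probe set rose by 1.43 (SE 0.24, adjusted p = 0.0121), a 2.70-fold higher level.

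The other Syt1 probe sets were not called in the Ctm line. On the brightest, 1433884_at, the Ctm knockout read 8.62, 8.59 and 8.57, against 8.57, 8.58 and 8.79 in wild type, a change of -0.06 (SE 0.10, adjusted p = 0.899). On 1431191_a_at and 1421990_at the changes were -0.03 and 0.06. Set against the other Syt1 probe sets, 1438282_at was 1.44 higher in the Ctm knockout by limma's test of probe sets within a gene (adjusted p = 0.00013), a test added after the data were seen. That test called 0.124% of 25762 probe sets in the Ctm line. Without Ctm wild-type array 3 the value was 0.97 (adjusted p = 0.0965). In the 118Q knock-in the same difference within Syt1 was -0.58 (adjusted p = 0.445), where 0.136% of probe sets were called, and in the 11Q knock-in -0.24 (0.0466% called). In the Ctm wild types against the 6 knock-in wild types it was -1.71 (adjusted p = 2.19e-09), where 14.2% of probe sets were called.

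The rise itself missed the threshold without Ctm knockout array 1 (1.29, adjusted p = 0.0891) or 2 (1.42, adjusted p = 0.065), where 4 and 6 of all probe sets passed in place of 320. It was 1.03 without Ctm wild-type array 3 (adjusted p = 0.0449), and with the 6 Ctm arrays alone it was 1.43 (adjusted p = 0.163). Without Ctm wild-type arrays 2 and 3, which leaves Ctm wild-type array 1 alone, it was 1.10. With the RNA quality measure as a covariate it was 1.43 (adjusted p = 0.0138).

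On Syt1 1438282_at the 118Q knock-in averaged 5.25 ± 0.13 and its wild types 5.86 ± 0.14 (SD, n = 3 each). The Ctm knockout averaged 5.38 ± 0.29 and its wild types 3.94 ± 0.69. The 11Q knock-in averaged 5.86 ± 0.13 and its wild types 5.91 ± 0.21. In order, the Ctm wild types were the lowest. The 118Q knock-in and the Ctm knockout followed, apart by less than their SDs, and then the other 3 groups, also apart by less than their SDs. Relative to the 6 knock-in wild types the Ctm wild types were at -1.94 (SE 0.20, adjusted p = 2.35e-05), while the Ctm knockout was at -0.51 and not called (adjusted p = 0.118).

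In the 118Q line Syt1 1438282_at read 5.15, 5.20 and 5.40 in knock-in, against 6.00, 5.85 and 5.72 in wild type. All knock-in arrays were lower, and the change was -0.61 (SE 0.24, adjusted p = 0.233). The 118Q change minus the Ctm change was -2.04 (SE 0.33, adjusted p = 0.0186). This call was lost without Ctm knockout array 1 (-1.90, adjusted p = 0.0594) or 2 (-2.03, adjusted p = 0.0511). The call was also lost with the RNA quality covariate (-1.89, adjusted p = 0.0582) and with the arrays of both lines alone (adjusted p = 0.0617). On 1433884_at the 118Q knock-in at 8.86, 8.86 and 8.81 lay just below 8.88, 8.89 and 9.11 in wild type (change -0.12, adjusted p = 0.645). In the 11Q line 1438282_at was at -0.05 and 1433884_at at 0.002. On 1431191_a_at the 11Q knock-in, at 5.03, 4.94 and 4.90, lay above 4.70, 4.81 and 4.55 in wild type (change 0.26, adjusted p = 0.909).

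On Syt1 1433884_at both Ctm groups were low. The Ctm knockout was 0.36 below the 6 knock-in wild types (SE 0.08, adjusted p = 0.0134) and the Ctm wild types 0.31 below them (SE 0.08, adjusted p = 0.0182).

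**Figure D4:**
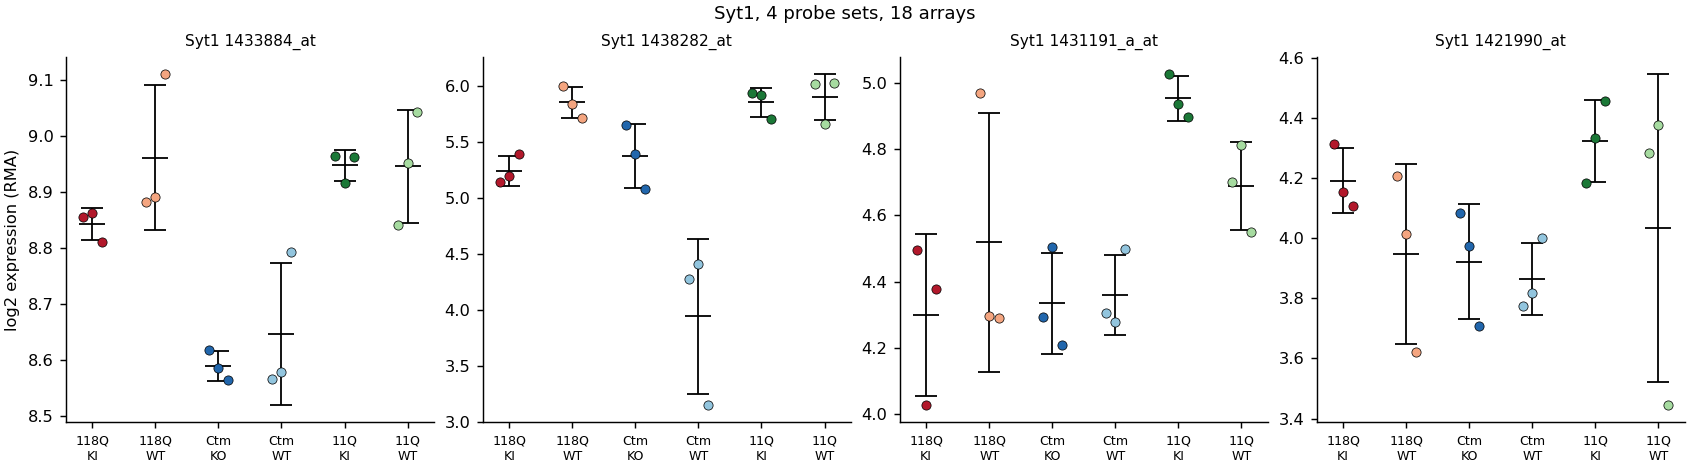
Log2 expression (y axis) of Syt1 on its 4 probe sets in each of the 18 arrays by group (x axis), with the mean and SD of 3 arrays as bars. Only on 1438282_at do the Ctm knockout and the Ctm wild types not overlap, with means of 5.38 in knockout and 3.94 in wild type.

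Synaptotagmin 2, the calcium sensor of fast synapses in the mouse hindbrain, was not called in any line. On Syt2 1440323_at the 118Q knock-in read 7.16, 6.74 and 7.03, against 7.24, 7.29 and 7.16 in wild type. The change was -0.25 (SE 0.12, adjusted p = 0.355), carried mostly by the second knock-in array. Ctm knockout arrays read 7.27, 7.19 and 7.08, against 7.26, 7.39 and 7.52 in wild type (change -0.21, SE 0.12, adjusted p = 0.551). Of the 11Q arrays, 7.10, 7.18 and 7.37 in knock-in stood against 7.17, 7.23 and 7.04 in wild type (change 0.07). The other 2 probe sets of Syt2 ran from -0.18 to 0.03 over the 3 lines.

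The Ctm wild types also differed from the knock-in wild types at 6 of the 10 genes. Between the Ctm wild types and the 6 knock-in wild types, 10 of the 29 probe sets were called, 2 higher and 8 lower, that is 34.5% against the 16.6% of all probe sets (7.78% higher and 8.81% lower). Besides those named above these were Pclo 1419392_at at -0.56, Nsf 1457205_at at -0.71, Nsf 1430409_at at -0.52 and Snap25 1447763_at at -0.77. Between the Ctm knockout and the same 6 wild types 4 of 29 were called, 1 higher and 3 lower (9.89% of all probe sets, 4.37% higher and 5.52% lower). Cplx1 1448832_a_at at -0.29 (adjusted p = 0.0287) and Snap25 1447763_at at -0.85 (adjusted p = 0.0449) were among the 3 lower. Both comparisons share the 6 wild types.

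Of 110 further genes of vesicle release and recycling in 7 lists, 105 were measured, each on its brightest probe set. In the 118Q knock-in 0 rose and 1 fell, where 0.698% of all genes were called (0.335% higher and 0.363% lower). The median of the 105 was -0.03, against 0.04 over all genes. In the Ctm knockout 1 rose and 0 fell, with 0.857% of all genes called (0.781% higher and 0.077% lower), and the medians were -0.06 and -0.06. In the 11Q knock-in 0 rose and 0 fell by limma, as did 0% of all genes, with medians of 0.01 and -0.02. At an unadjusted p below 0.05 there were 23 of the 105 in 118Q, 14 in Ctm and 5 in 11Q, against 15.4%, 11.3% and 5.17% of all genes.

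The 1 fall in the 118Q knock-in was Cacna2d2, an auxiliary subunit of calcium channels, at -0.74 (SE 0.14, adjusted p = 0.0266), among 7 presynaptic channel genes with a median of -0.29. It did not pass in the fit on the 6 arrays of the line alone (-0.74, adjusted p = 0.245) or with the RNA quality covariate (-0.66, adjusted p = 0.109). The beta subunit genes Cacnb2 and Cacnb4 were at -0.39 and -0.31 and did not pass. In the Ctm knockout Cacna2d1 was at 0.63 (adjusted p = 0.0642), Cacnb4 at 0.53 (adjusted p = 0.0576) and the N-type channel gene Cacna1b at 0.26. The 118Q change minus the Ctm change of Cacnb4 was -0.84 (SE 0.18, adjusted p = 0.0339), and did not pass with the arrays of both lines alone (adjusted p = 0.0677) or with the RNA quality covariate (adjusted p = 0.0885). In 11Q, Cacnb2, Cacnb4 and Cacna1a were at 0.27, -0.15 and -0.09.

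Among 9 other SNARE genes the 1 rise in the Ctm knockout was Stxbp5l, a tomosyn that binds syntaxin, at 0.88 (SE 0.19, adjusted p = 0.0341). It did not pass in the fit on the 6 Ctm arrays alone (adjusted p = 0.195). Its 118Q change minus its Ctm change was -1.11 (SE 0.27, adjusted p = 0.0472), and did not pass with the arrays of both lines alone (adjusted p = 0.0929) or with the RNA quality covariate (adjusted p = 0.112). The other tomosyn gene Stxbp5 was at 0.23 in Ctm and Snap47 at -0.27, short of the threshold. In 118Q, Snap47 was at -0.28, Snapin at 0.24 and Napa, which encodes the adaptor of NSF, at 0.20. In the 11Q line Napa, the vesicle SNARE gene Vamp2 and Snap47 were at 0.13, 0.13 and -0.09.

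Of 21 vesicle recycling genes 0 passed in the 118Q knock-in by limma, while 12 had an unadjusted p below 0.05, 9 of them lower and 3 higher, where 15.4% of all genes did. The 3 with the smallest p were Cltc, the clathrin heavy chain gene, at -0.48 (SE 0.11, adjusted p = 0.0511), Dnm3, which encodes a dynamin, at -0.46 (adjusted p = 0.0639), and Dnajc6, the auxilin gene, at -0.44 (adjusted p = 0.0856). The 21 had a median of -0.10, against 0.04 over all genes. In Ctm the 3 with the smallest p were Cltb, Ap2s1 and Clta at -0.21, -0.20 and -0.19. In 11Q they were Dnm1, Ap2a1 and Itsn1 at 0.28, 0.35 and -0.19.

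Of 26 vesicle membrane genes 0 passed by limma in any of the 3 lines. At an unadjusted p below 0.05 there were 2, 1 and 0 in 118Q, Ctm and 11Q, against 15.4%, 11.3% and 5.17% of all genes. Slc32a1, whose product loads vesicles with GABA, was at -0.81 in 118Q (SE 0.20, adjusted p = 0.0695), Sv2c at -0.43 and the synapsin gene Syn3 at -0.46. Slc32a1 is used by inhibitory neurons and is itself 1 of the 10 measured markers of molecular layer interneurons and Golgi cells. These markers had a summed level of 725 to 1455 in the 118Q knock-in, against 1328 to 1670 in wild type. These sums overlapped (exact permutation p = 0.2, adjusted p = 0.60). Of the 10 markers 0 were called by limma, while 6, Slc32a1 among them, had an unadjusted p below 0.05, where 15.4% of all genes did. All 6 were lower, and the median of the 10 was -0.50. Slc32a1 enters the sums and this median, and the part of these cells in its value was not tested. In Ctm, Svop was at -0.31, Rab27b at 0.61 and Scamp5 at -0.21. In 11Q, the proton pump gene Atp6v0a1 was at 0.25, Syn1 at 0.39 and the glutamate transporter gene Slc17a6 at -0.43.

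The 21 further active zone genes, 13 calcium sensors and 8 priming genes also had 0 calls by limma in the 3 lines. At an unadjusted p below 0.05 there were 2, 6 and 2 active zone genes in 118Q, Ctm and 11Q, 1, 2 and 1 sensors, and 2, 0 and 1 priming genes. The shares of all genes were 15.4%, 11.3% and 5.17% in the same order of lines. In 118Q the values with the smallest p were those of the neurexin gene Nrxn3 at -0.31, Ppfia1 at 0.30, Rims2 at -0.33, Doc2b at -0.32, Syt9 at 0.22, Doc2a at 0.26, Cadps at -0.44, Cadps2 at -0.25 and Unc13b at -0.33. In Ctm they were Rims4 at -0.35, Lin7a at 0.58, Lin7c at 0.35, Syt12 at -0.35, Syt9 at -0.24, Syt13 at -0.25, Stxbp6 at -0.17, Cadps at 0.10 and Unc13b at 0.08. In 11Q they were Ptprf at -0.38, Erc2 at -0.30, Apba1 at 0.29, Syt16 at -0.46, Syt17 at -0.35, Syt7 at 0.13, Stxbp6 at -0.35, Cplx2 at 0.23 and Cadps at -0.18. Erc2 encodes a further scaffold of the active zone, and Cadps a factor that primes dense-core vesicles.

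**Figure D5:**
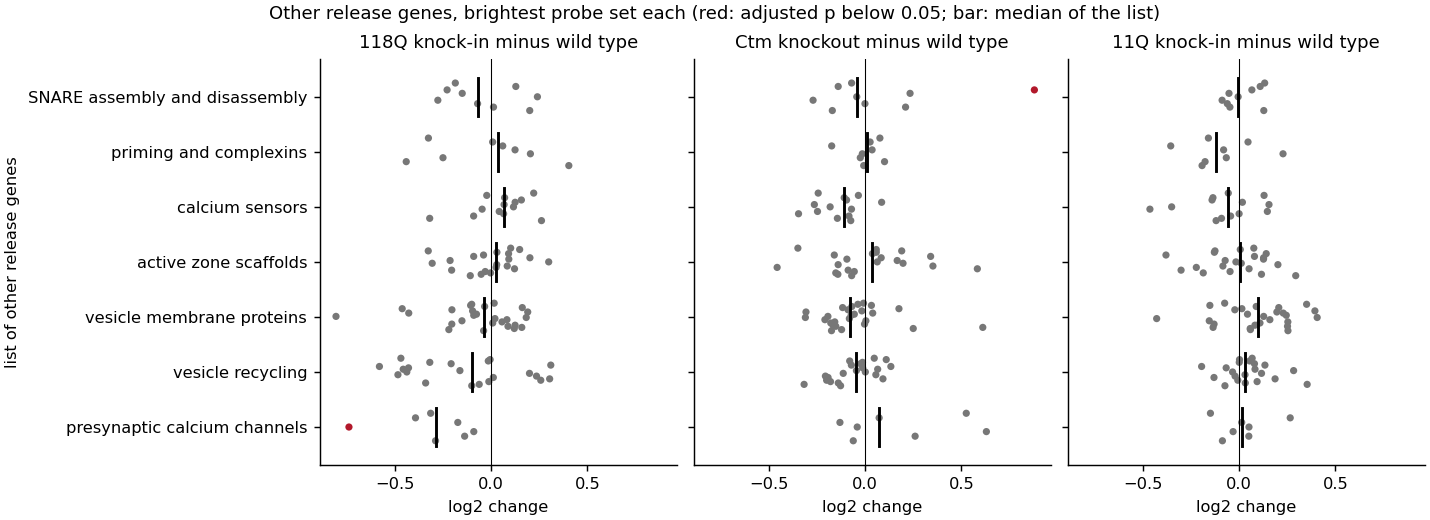
Log2 change, mutant minus wild-type littermates (x axis), of 105 other release genes in 7 lists (y axis) in the 118Q, Ctm and 11Q lines, 1 point per gene on its brightest probe set, with a bar at the median of each list. The red points, past the threshold, are Cacna2d2 at -0.74 in 118Q and Stxbp5l at 0.88 in Ctm.

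Markers of other cells of the cerebellum were compared as well. Of all genes 0.335% rose and 0.363% fell in the 118Q knock-in, and 0.781% and 0.077% in the Ctm knockout. An unadjusted p below 0.05 was found for 15.4% of all genes in 118Q and 11.3% in Ctm. Granule cell markers, of the neurons that outnumber all others in the cerebellum, had a summed level of 7974 to 8497 in the 118Q knock-in against 8667 to 8810 in wild type. In the Ctm line it was 9436 to 9687 in knockout against 8632 to 9163 in wild type. Neither pair of groups overlapped (exact permutation p = 0.1 each, adjusted p = 0.42), though 0 of 13 granule cell markers were called in either line. At an unadjusted p below 0.05 there were 3 in 118Q, 1 of them lower, and 2 in Ctm, 0 of them lower. The lower one was Cadps2 at -0.25, which is also among the priming genes above. The sum weights bright markers most, and the mean log2 level of the 13 overlapped in both lines, with mutant minus wild type at -0.02 in 118Q and 0.04 in Ctm (exact permutation p = 0.6 and 0.7, adjusted p = 0.98 each). Of 14 microglia markers 2 rose in the 118Q knock-in, Trem2 at 0.89 and Tyrobp at 1.03, and 10 had an unadjusted p below 0.05, all higher. Their sums were 422 to 582 in knock-in and 350 to 413 in wild type, with no overlap (exact permutation p = 0.1, adjusted p = 0.42). In the Ctm line 0 of 14 were called by limma, 3 of 4 at an unadjusted p below 0.05 were lower, and the sums were 281 to 325 in knockout and 343 to 377 in wild type, with no overlap (exact permutation p = 0.1, adjusted p = 0.42). Of 10 markers of endothelial cells and pericytes 1 fell in the 118Q knock-in, Flt1 at -0.90, and 7 had an unadjusted p below 0.05, all lower. Their sums were 348 to 432 in knock-in and 435 to 554 in wild type, with no overlap (exact permutation p = 0.1, adjusted p = 0.42), though the mean log2 levels overlapped. The calls of Trem2, Tyrobp and Flt1 were lost in the fit on the 6 arrays alone (adjusted p from 0.209 to 0.245 by limma) and with the RNA quality covariate (0.0516 to 0.077). The part of these cell types in the values of the release genes was not tested. Over all 18 arrays the mean level of Purkinje cell markers was 8.60 to 9.45 log2 units and that of granule cell markers 8.45 to 8.75, so both defining cell types of the labelled tissue were seen in every array. Markers of the hindbrain outside the cerebellum averaged 1.20 to 1.94.

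Finally, the genes most like each member were sought on the brightest probe sets over all 18 arrays, among 9096 of the brighter genes (9097 for Stx1a). These correlations (r) describe the arrays, which share their lines, RNA quality and tissue makeup. With each group centred on its mean, r of the same pairs ran from 0.49 (Cplx1 and Polr2h) to 0.91 (Unc13c and Slitrk2). For most pairs this was lower than r over all arrays, so differences between groups enter their values below. The centred r was higher only for Syt2 and Gnb5 (0.91 against 0.88), Stx1a and Emp2 (0.85 against 0.83) and Stx1a and Idi1 (0.85 against 0.82). The genes nearest Pclo were Opa1 (0.93), Snrnp200 (0.92) and Ints6 (0.91), and those nearest Bsn were Ubr4 (0.91), Mical3 (0.89) and Huwe1 (0.89). Rims1 ran closest to Fxr2, Ube2o and Syn1 (0.92 each). Snap25 was nearest Slc9a7 (0.92), Car8 (0.91) and Vapa (0.90), and Nsf nearest Gucy1b1 (0.94), App (0.94) and Slc1a6 (0.94). Car8 and Slc1a6 are on the Purkinje marker list. Syt1 was nearest Ccser1 (0.95), Foxj3 (0.95) and Ago1 (0.94), and Syt2 nearest Prep (0.93), Atp6v1c1 (0.88) and Gnb5 (0.88). Unc13c was nearest Slitrk2 (0.95), Fam160b2 (0.93) and Ice2 (0.92), Cplx1 nearest Mllt11 (0.88), Timm17a (0.87) and Polr2h (0.86), and Stx1a nearest Emp2 (0.83), Sh3pxd2b (0.83) and Idi1 (0.82).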

How the data were processed

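Gene expression was measured in 18 cerebellum samples on Affymetrix arrays, 3 in each of 6 groups taken from the labels. The authors deposited 1 log2 value per probe set and array, made by RMA, per the submitters' processing notes, with no version. The zero point of the scale is not given, and values ran from -0.26 to 12.2, so changes of dim probe sets depend on the background step. Array number, not read depth, limits the precision.

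Of 45101 probe sets, 64 array controls and 10092 with several symbols or none were left out. A model with 1 mean for each group was fitted to all 18 arrays with lmFit and eBayes of limma 3.58.1 (R 4.3.3), which gave two-sided moderated tests with 12 residual and 5.88 prior degrees of freedom, adjusted by Benjamini-Hochberg over 34945 probe sets. Each probe set entered by itself. Array measures were compared with exact permutation tests, adjusted over 63 tests. On simulated data with 34945 probe sets, the 118Q comparison recovered 88 of 100 changes of 1 and 96 of 100 of 1.5 log2 units, with 7 false calls. Its noise was drawn independently for each probe set and array, without shared deviations of arrays or differences in RNA quality. Changes below 1 log2 unit, as all those of the members in 118Q were, were not simulated. The recovery in the real arrays is therefore not known.

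All members are named: the brightest probe set of each gene, every called one and the one with the smallest p in each line. From each list of further genes come up to 3 per line by smallest p. The members and lists were chosen with earlier results of these data known. Values of further probe sets of the members, and of single arrays that stand apart, were chosen after they were seen. Deviations of same-numbered mutant and wild-type arrays correlated at -0.08, -0.09 and 0.008 in 118Q, 0.04, 0.22 and -0.10 in Ctm and 0.16, -0.12 and 0.04 in 11Q, so the numbers were not taken to pair them. Across lines, wild-type arrays 3 of 118Q and 11Q correlated at 0.42. Alternatives were other choices of probe sets, filters, variance models, normalisation, covariates, groups and leaving out arrays. Tests within a gene, and refits without wild-type array 3 of both knock-in lines or without Ctm wild-type arrays 2 and 3, were added after the data were seen, as were the refits given for called genes of the lists. Promoters came from RefSeq (GRCm38.p6), 300 bases each.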

Additional observations from a re-analysis of the deposited data

Results flagged for a closer look

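For 3 probe sets the change in the 118Q line differed from the change in the Ctm line by limma's test of that difference, with n = 3 in each of the 4 groups. On Syt1 1438282_at the 118Q change minus the Ctm change was -2.04 (SE 0.33, adjusted p = 0.0186), from a change of -0.61 in 118Q and of 1.43 in Ctm. On Pclo 1455373_at it was -1.45 (SE 0.26, adjusted p = 0.0202), from -0.59 in 118Q and 0.86 in Ctm. On Pclo 1452423_at it was -1.38 (SE 0.31, adjusted p = 0.0389), from -0.53 in 118Q and 0.85 in Ctm. In all 3 the 118Q knock-in arrays lay below all of their wild types, and in the first and second the Ctm knockout arrays lay above all of theirs. None of the 3 changes in 118Q passed by itself. All 3 calls of a difference were lost with the RNA quality measure as a covariate and with the arrays of both lines alone. As each array was left out in turn, the calls held in 10, 8 and 3 of 12 refits, in the order given. The Ctm wild types enter each of the 3 differences. Without Ctm wild-type arrays 2 and 3 the values were -1.71, -1.0 and -0.84 in the same order. That refit leaves Ctm wild-type array 1 alone in its group, so no p is given.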

How the results depend on the processing

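Counts are of called probe sets. With 1 brightest probe set per gene, Ctm gave 169 of all and 0 members, 118Q minus Ctm 0 members, and the Ctm knockout and Ctm wild types against knock-in wild types 2 and 4. Averaging the probe sets of each gene gave 176, 0, 1 and 2 for Ctm all, Ctm members and these last 2. In 118Q the count over all was 562 with all probe sets except controls, 491 without the dimmer 50% (Ctm 492), 412 with trend and robust settings, 298 after quantile normalisation and 1 with the RNA quality covariate (118Q minus Ctm 0 members). Trend and robust settings gave 3 in 11Q and 5 members in 118Q minus Ctm. Array weights gave 1681 in 118Q with 3 members, 1028 in Ctm, 5 in 11Q, 5 members in 118Q minus Ctm, 1 in Ctm minus 11Q and 8 for the Ctm knockout against knock-in wild types. Median centring gave 5 in 11Q. A replicate block gave 92 in 118Q and 1 in 11Q and changed no other count of calls by over 1.5 times. A fold of at least 1.5 left 2 and 6 members for the Ctm knockout and wild types against knock-in wild types. The compared arrays alone gave 0 in 118Q, 2 in Ctm with 0 members, 4 in 11Q, 0 members in 118Q minus Ctm, and 2 and 4 for the last 2 comparisons. Against the 6 knock-in wild types, 118Q gave 2194 with 4 members and Ctm 3456 with 4 members. A refit added later gave 2 in 118Q without wild-type array 3 of both knock-in lines. The refit without Ctm wild-type arrays 2 and 3 leaves Ctm wild-type array 1 alone, so its counts are not given.

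Leaving out 1 array at a time gave 1 to 1078 of all and 0 to 1 members in 118Q, 4 to 796 and 0 to 3 in Ctm, and 0 to 2 of all in 11Q. Members ran from 0 to 3 in 118Q minus Ctm, 0 to 2 in Ctm minus 11Q, 1 to 5 for the Ctm knockout and 6 to 10 for the Ctm wild types against knock-in wild types.

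The 68 named values were recomputed 1347 times in all. Of these, 1226 kept their side of the threshold and their sign, or moved across 0 by less than 1 replicate SD (54), 94 lost a call, 9 gained one, and 18 turned sign by more. With the mean of probe sets these were Cplx1 in 118Q (0.091), Nsf and Syt1 in Ctm (0.13 and 0.35) and Snap25 and Cplx1 in 11Q (-0.46 and 0.14). Against the 6 knock-in wild types the Ctm values were -0.40 and -0.14 for Pclo 1419392_at and 1455373_at, 0.18 and -0.21 for Nsf 1422456_at and 1457205_at, 0.39 for Rims1, -0.38 and -0.025 for Unc13c 1455304_at and 1437319_at, -0.51 for Syt1 1438282_at and 0.032 for Stx1a 1448366_at. Leaving out 118Q wild types in turn, Unc13c 1455304_at ran from -0.27 to 0.11 and Cplx1 1417747_at from -0.15 to 0.51, and without wild-type array 3 of both knock-in lines they were 0.11 and -0.15. The cause was not tested. With 3 arrays a group and no probe positions, small changes and dim probe sets (Bsn 1422023_at, Nsf 1430409_at, Stx1a 1448366_at) are the least certain.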
